A study of Mus musculus with 2 samples.

Results

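Steroid-making transcripts were followed through cells sorted as endothelium from the mouse adrenal gland, where most of the cells captured do not make steroids. The set holds 10 of the 54838 genes in the files and was chosen by symbol: Star, Cyp11a1, Cyp21a1, Hsd3b1, Cyp11b1, Fdx1, Mc2r, Mrap, Nr5a1 and Akr1b7. All 10 had a row in both libraries and all are accounted for below. They are described in the cells that carry cortex markers, in endothelial cells and in myeloid-like cells.

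The study asked what vascular endothelial growth factor A made by macrophages does for the endothelial cells of the gland. It compared 1 droplet-based single-cell library (10x Genomics) from mice labelled VEGF/LysM with 1 library from wild-type (WT) mice, all female and 12 weeks old. The VEGF/LysM label is not spelled out further, and LysM names the lysozyme gene promoter commonly used to drive Cre in myeloid cells. Both libraries came from minced glands digested with a cold-active protease and sorted for CD31+, CD45- and viable cells, so steroid-making cells should have been left outside the gate. How many mice were pooled for a library is not stated. With 1 library per group there is no replicate check, no test was made, and every interval below is a 95% interval that covers counting error only.

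In the adrenal cortex, cholesterol is carried to the inner mitochondrial membrane by the product of Star and cut there to pregnenolone by that of Cyp11a1, which receives electrons through ferredoxin, the product of Fdx1. The products of Hsd3b1, Cyp21a1 and Cyp11b1 then carry out the next steps toward corticosterone, the main glucocorticoid of the mouse. Adrenocorticotropic hormone (ACTH) drives the pathway through its receptor Mc2r, which needs the accessory protein Mrap to reach the cell surface, and the nuclear receptor Nr5a1 (steroidogenic factor 1) switches on many of these genes. Akr1b7 encodes an aldo-keto reductase of the mouse cortex that handles an aldehyde released when the cholesterol side chain is cut. Fdx1 is needed in mitochondria of many tissues, whereas most of the other 9 are known chiefly from steroid-making tissue. Mrap is also known from fat cells, and Akr1b7 is not limited to steroid-making tissue.

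Upstream sequences of 4 members are shown because Fdx1 is set against the others below. They are the 250 bases before an annotated start in RefSeq (GRCm38.p6), the only windows matched for 4 of the 10 members by symbol. Nr5a1 binds sites built on AGGTCA, so AGGTCA and its reverse complement TGACCT were searched and are in capitals. Each ends at the base before that start. The Cyp11a1 window, which lies inside the GENCODE M21 span of the gene (chr9:58006411-58027023), is chr9:58014702-58014951 on the plus strand, the Akr1b7 window chr6:34412112-34412361 on the plus strand, the Hsd3b1 window chr3:98859795-98860044 on the minus strand and the Fdx1 window chr9:51963603-51963852 on the minus strand.
Cyp11a1: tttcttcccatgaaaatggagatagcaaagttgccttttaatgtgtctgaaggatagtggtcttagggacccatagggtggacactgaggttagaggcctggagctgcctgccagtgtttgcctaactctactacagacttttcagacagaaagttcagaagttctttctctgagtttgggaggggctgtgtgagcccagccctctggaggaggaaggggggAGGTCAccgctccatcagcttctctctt
Akr1b7: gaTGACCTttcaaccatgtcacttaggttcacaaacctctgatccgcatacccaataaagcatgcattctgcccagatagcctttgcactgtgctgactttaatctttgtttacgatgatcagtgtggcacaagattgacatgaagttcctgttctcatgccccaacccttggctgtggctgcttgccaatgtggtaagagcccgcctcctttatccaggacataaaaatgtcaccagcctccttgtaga
Hsd3b1: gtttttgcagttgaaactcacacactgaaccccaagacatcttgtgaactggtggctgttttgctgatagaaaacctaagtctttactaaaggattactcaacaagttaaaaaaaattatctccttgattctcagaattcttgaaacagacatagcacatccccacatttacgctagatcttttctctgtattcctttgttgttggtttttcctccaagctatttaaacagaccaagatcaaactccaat
Fdx1: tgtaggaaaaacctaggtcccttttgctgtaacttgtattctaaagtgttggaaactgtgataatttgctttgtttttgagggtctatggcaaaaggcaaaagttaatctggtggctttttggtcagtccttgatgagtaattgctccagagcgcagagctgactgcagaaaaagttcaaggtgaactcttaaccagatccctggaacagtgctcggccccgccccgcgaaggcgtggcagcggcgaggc

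A match is a description of the letters and not of binding. The motif lay 28 bases before the start in the Cyp11a1 window and 248 bases before it in the Akr1b7 window, there as TGACCTT. It was in neither the Hsd3b1 window nor the Fdx1 window, nor in a second Cyp11a1 window at chr9:57997774-57998023. Of all 32851 RefSeq windows, each likewise cut to the 250 bases before the start, 14.02% held AGGTCA on either strand and 4.08% the longer AAGGTCA. The Fdx1 window differed in its CpG dinucleotides, of which it held 8, against 1 in the Cyp11a1 window shown, 1 in Hsd3b1 and 3 in Akr1b7. The median of all windows was 6.

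Cells were sorted into classes by clustering that left out the 10 members, and classes were named from other markers. The VEGF/LysM library gave 3677 cells with a median of 2318 UMIs (counted RNA molecules) and the WT library 5819 cells with a median of 1163, so depth differed between the libraries. Endothelial cells made up 3516 of the VEGF/LysM cells and 5682 of the WT cells. Most were high in Plvap, the diaphragm protein of fenestrated capillaries (2160 VEGF/LysM and 4169 WT cells), and the next class carried Cd36 and Car4 and is called capillary-like (729 and 790 cells). The libraries shared 10 barcodes. Levels are in CPM, UMIs of the gene scaled to a total of 1000000 UMIs and summed over the cells of a class in 1 library.

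An adrenocortical-like cluster held 38 VEGF/LysM and 27 WT cells, with median depths of 3423.5 and 1986 UMIs. Of its 13 non-member cortex markers, from which it was named, 13 had a UMI in VEGF/LysM and 11 in WT, summing to 3723 and 2761 CPM. The number found did not set the cluster apart. The far more numerous capillary-like cells had a UMI for 10 in VEGF/LysM and 13 in WT, summing to 797 and 822.3 CPM. The cluster was led by Caln1, Cacnb2, Cacna2d1 and Agtr1b, the last an angiotensin receptor gene of the outer cortex. Chromaffin markers were at 0 of 8 in both libraries, while the 8 pan-endothelial markers summed to 2682 CPM in VEGF/LysM and 2947 CPM in WT (15740 and 15510 CPM in Plvap-high cells). The members, which had no part in forming the cluster, reached 11757 CPM together in VEGF/LysM and 10580 CPM in WT.

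Every member except Mrap had at least 10 UMIs in the adrenocortical-like cells of each library. With at least 50 UMIs over both sides, 9 members in VEGF/LysM and 7 in WT could be compared with endothelial cells, and all 9 and all 7 were at least 10-fold higher, where 1.63% of genes were in VEGF/LysM and 1.08% in WT. In VEGF/LysM, Mc2r, Nr5a1 and Akr1b7 had 4, 16 and 38 endothelial UMIs and reached 50 only through 84, 42 and 105 adrenocortical-like ones. In WT, Akr1b7 reached it with 41 endothelial and 25 adrenocortical-like UMIs. For these members a high ratio was partly fixed in advance by the limit. Star had 415 UMIs (1778 CPM) in VEGF/LysM and 118 UMIs (1566 CPM) in WT. Cyp11a1 had 1410 CPM in VEGF/LysM and 1620 CPM in WT. Hsd3b1 was at 2674 CPM in VEGF/LysM and 2575 CPM in WT. The log2 ratios of these genes of cholesterol transport and the opening conversions all had intervals that held 0. Cyp21a1, the 21-hydroxylase, was at 1765 CPM in VEGF/LysM and 1978 CPM in WT, and its log2 ratio of -0.16 had an interval from -0.44 to 0.12. The ACTH receptor Mc2r had 84 UMIs (359.9 CPM) in VEGF/LysM and 32 UMIs (424.8 CPM) in WT. Its partner Mrap had only 16 UMIs (68.6 CPM) in VEGF/LysM and 2 UMIs (26.6 CPM) in WT. Nr5a1 had 180 CPM in VEGF/LysM and 132.8 CPM in WT, and Akr1b7 449.9 CPM in VEGF/LysM and 331.9 CPM in WT.

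Cyp11b1 and Fdx1 departed from this in opposite directions. Cyp11b1, the 11-beta-hydroxylase that finishes corticosterone, was at 304.2 CPM in VEGF/LysM and 1049 CPM in WT, a log2 ratio of -1.79 (-2.27 to -1.31). Fdx1 was at 2768 CPM in VEGF/LysM and 876.2 CPM in WT, a log2 ratio of 1.66 (1.29 to 2.05). Both ratios rest on few cells: 3 cells held 74.7% of the Cyp11b1 UMIs in VEGF/LysM and 48.1% in WT, and 3 cells held 40.7% of the Fdx1 UMIs in VEGF/LysM and 59.1% in WT.

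The cells that carried Agtr1b, chosen after the values had been seen, differed in Fdx1 in both libraries and in Cyp11b1 only in WT. Cells with 2 or more Agtr1b UMIs numbered 11 in VEGF/LysM and 3 in WT, and were deeper on average than the rest. In VEGF/LysM, Fdx1 was at 3409 CPM in them and 1756 CPM in the other 27 cells. In WT, Fdx1 was at 2176 CPM in them and 536 CPM in the other 24 cells. Cyp11b2, the aldosterone synthase of the outermost cortex zone, had 29 of its 30 VEGF/LysM UMIs in the 11 cells and 2 of its 3 WT UMIs in the 3 cells. Cyp11b1 stood at 301 CPM in the 11 VEGF/LysM cells and 309.3 CPM in the other 27. In WT it stood at 384.1 CPM in the 3 cells (6 UMIs, all in 1 cell) and 1223 CPM in the other 24. Such cells were thus 11 of 38 in VEGF/LysM and 3 of 27 in WT, at different depths, and their part in the Cyp11b1 and Fdx1 ratios was not tested.

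Outside these cells the summed members were found at low levels in every larger endothelial class, although Cyp11b1, Mc2r, Mrap and Nr5a1 had 0 UMIs in tip-like cells of both libraries (166 VEGF/LysM and 246 WT cells), and Fdx1 was set apart from the other 9. Fdx1 was the most level across the larger classes: in Plvap-high cells it had 41.7 CPM in VEGF/LysM and 35.7 CPM in WT. In arterial-like cells it had 44.2 CPM in VEGF/LysM and 40.4 CPM in WT. In myeloid-like cells it had 35.7 CPM in VEGF/LysM and 26.5 CPM in WT. The highest of the larger classes was capillary-like, with 80.6 CPM of Fdx1 in VEGF/LysM and 61.5 CPM in WT. Because of this the other 9 are also summed without it.

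**Figure D1:**
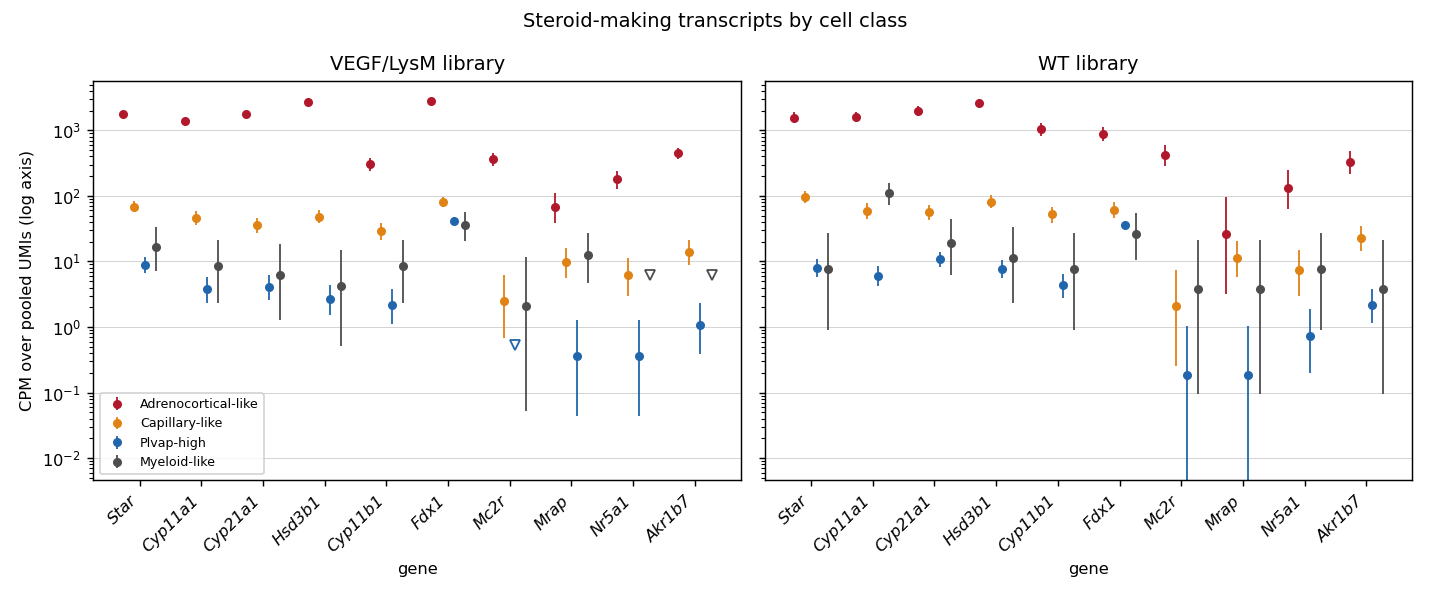
CPM of each member (log axis) in adrenocortical-like, capillary-like, Plvap-high and myeloid-like cells of the VEGF/LysM library (left) and the WT library (right). Points are levels over pooled UMIs, bars are exact Poisson 95% intervals, and open triangles mark classes with 0 UMIs, drawn at the level of 3 UMIs. Capillary-like cells lie above Plvap-high cells for every member in both libraries, with Star at 68.3 against 8.95 CPM in VEGF/LysM, and the gap is narrowest for Fdx1.

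The 9 cortex transcripts were many times higher in capillary-like than in Plvap-high endothelial cells, in both libraries. Their sum was 259.7 CPM (235.5 to 285.7) in capillary-like and 23.4 CPM (19.6 to 27.8) in Plvap-high cells of VEGF/LysM, a ratio of 11.1 (9.09 to 13.6). In WT it was 389.8 CPM (351.3 to 431.4) in capillary-like and 40.3 CPM (35.1 to 46.0) in Plvap-high cells, a ratio of 9.68 (8.17 to 11.5). Fdx1 differed between the same cells by 1.93-fold (1.55 to 2.41) in VEGF/LysM and 1.72-fold (1.27 to 2.32) in WT.

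Star, the cholesterol carrier, had 111 UMIs (68.3 CPM) in capillary-like and 50 UMIs (8.95 CPM) in Plvap-high cells of VEGF/LysM. In WT it had 93 UMIs (96.9 CPM) in capillary-like and 44 UMIs (8.06 CPM) in Plvap-high cells. The ratio was 7.64 (5.42 to 10.9) in VEGF/LysM and 12.0 (8.32 to 17.6) in WT. The enzymes behaved alike. Cyp11a1 was 12.3-fold (7.49 to 20.99) higher in capillary-like cells of VEGF/LysM and 9.83-fold (6.30 to 15.6) in WT. Hsd3b1 was 17.9-fold (10.2 to 33.5) higher in VEGF/LysM and 10.6-fold (7.18 to 15.8) in WT. Cyp21a1 had the smallest ratio of the enzymes in both libraries, 8.67 (5.27 to 14.7) in VEGF/LysM and 5.21 (3.53 to 7.67) in WT. Cyp11b1, at the end of the corticosterone path, was 13.5-fold (7.04 to 27.9) higher in VEGF/LysM and 11.9-fold (7.15 to 20.2) in WT.

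The ACTH machinery was sparse. Mrap had 16 UMIs (9.85 CPM) in capillary-like and 2 UMIs (0.358 CPM) in Plvap-high cells of VEGF/LysM, and 11 UMIs (11.5 CPM) and 1 UMI (0.183 CPM) in WT. Its ratio was 27.5 (6.47 to 247) in VEGF/LysM and 62.6 (9.10 to 2695) in WT. Mc2r had 4 UMIs in capillary-like cells of VEGF/LysM and 0 in Plvap-high cells, which allows up to 0.537 CPM (3 UMIs). In WT it had 2 UMIs in capillary-like and 1 in Plvap-high cells, a ratio of 11.4 (0.593 to 672). Nr5a1 had 10 UMIs in capillary-like and 2 in Plvap-high cells of VEGF/LysM, and 7 and 4 UMIs in WT. Akr1b7 was 13.2-fold (5.22 to 39.6) higher in capillary-like cells of VEGF/LysM and 10.4-fold (4.95 to 23.1) in WT. UMIs of Mrap to those of Mc2r thus stood at 16 to 4 in capillary-like and 16 to 84 in adrenocortical-like cells of VEGF/LysM, and at 11 to 2 and 2 to 32 in WT.

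Among all genes with at least 50 UMIs over both classes, 11.7% were at least 1.5-fold higher in capillary-like cells of VEGF/LysM and 11.1% in WT, and of the 6 members with that many UMIs, 6 were so in each library. At least 3-fold higher were 3.56% of genes in VEGF/LysM and 2.85% in WT, and 5 of the 6 members in each. The median log2 ratio was 3.39 over the 6 members and -0.08 over all genes in VEGF/LysM, and 3.35 and -0.09 in WT. The other 4 members, Mc2r, Mrap, Nr5a1 and Akr1b7, had too few UMIs to enter this count. Cyp11a1, Cyp21a1, Hsd3b1 and Cyp11b1 had only 21, 23, 15 and 12 Plvap-high UMIs in VEGF/LysM and reached 50 through capillary-like ones. In WT the same held for Star, Cyp11a1, Hsd3b1 and Cyp11b1, with 44, 33, 42 and 24. A higher level in capillary-like cells was thus partly fixed in advance for them by the limit.

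Other measures moved with the members between these classes, and their part in the difference was not tested. Haemoglobin transcripts (4 genes) summed to 324.9 CPM in capillary-like and 80.3 CPM in Plvap-high cells of VEGF/LysM, and to 362.7 and 86.6 CPM in WT. Mitochondrial genes took 3.03% of UMIs in capillary-like and 1.70% in Plvap-high cells of VEGF/LysM, and 3.37% and 1.60% in WT. They took 4.30% in adrenocortical-like cells of VEGF/LysM and 4.66% in WT. Capillary-like cells were shallower, with medians of 1714 and 2420 UMIs for capillary-like and Plvap-high cells of VEGF/LysM and of 907 and 1196 in WT. Cfd, which encodes the fat-cell protein adipsin and was singled out after values were seen, was at 19.7 and 0.716 CPM in VEGF/LysM and 31.3 and 1.28 CPM in WT. The 8 chromaffin markers of the neighbouring medulla summed to 3.69 CPM (1.36 to 8.04, 6 UMIs) in capillary-like and 1.97 CPM (0.983 to 3.52, 11 UMIs) in Plvap-high cells of VEGF/LysM. In WT they summed to 7.30 CPM (2.93 to 15.03, 7 UMIs) in capillary-like and 3.11 CPM (1.81 to 4.98, 17 UMIs) in Plvap-high cells.

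Set against the adrenocortical-like cells of the same library, the summed 10 members stood in all endothelial cells at 1.12% (1.04 to 1.20) in VEGF/LysM and 1.25% (1.14 to 1.38) in WT. Without Fdx1 the capillary-like level was 2.89% (2.60 to 3.21) of the adrenocortical-like one in VEGF/LysM and 4.02% (3.54 to 4.56) in WT. The Plvap-high level was 0.261% (0.217 to 0.311) in VEGF/LysM and 0.415% (0.355 to 0.483) in WT. The members did not keep the same order by this measure. In capillary-like cells Hsd3b1 stood at 1.80% in VEGF/LysM and 3.16% in WT. Star stood at 3.84% in VEGF/LysM and 6.19% in WT, and Mc2r at 0.684% and 0.491%. Mrap stood at 14.4% (6.73 to 30.7) in VEGF/LysM and 43.2% in WT, where the value rests on 2 adrenocortical-like UMIs with an interval from 9.42% to 401%.

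**Figure D2:**
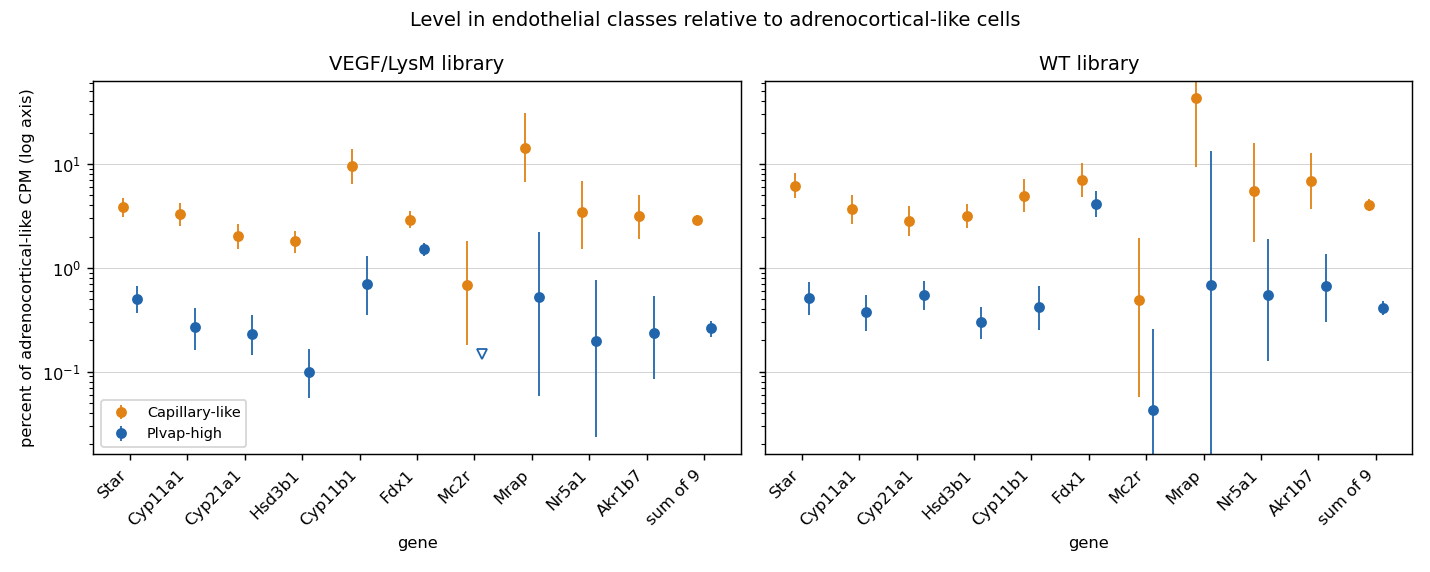
Level of each member in capillary-like and Plvap-high cells as a percent of its CPM in adrenocortical-like cells (log axis), in the VEGF/LysM library (left) and the WT library (right), with exact conditional binomial 95% intervals. An open triangle marks 0 UMIs, drawn at 3 UMIs, and bars that leave the panel reach beyond its axis. Capillary-like cells lie between 0.684% for Mc2r and 14.4% for Mrap in VEGF/LysM, and Fdx1 has the smallest gap between the classes.

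The make-up of the 9 transcripts was therefore not the same in capillary-like and adrenocortical-like cells. Mc2r was 0.948% (0.259 to 2.41) of the 9 in capillary-like and 4.00% (3.21 to 4.93) in adrenocortical-like cells of VEGF/LysM. In WT it was 0.535% (0.0648 to 1.92) in capillary-like and 4.38% (3.01 to 6.12) in adrenocortical-like cells. Star made up 26.3% (22.2 to 30.8) in capillary-like and 19.8% (18.1 to 21.6) in adrenocortical-like cells of VEGF/LysM, and 24.9% (20.6 to 29.6) and 16.1% (13.6 to 19.0) in WT. Hsd3b1 went the other way, with 18.5% (14.9 to 22.5) in capillary-like and 29.7% (27.8 to 31.8) in adrenocortical-like cells of VEGF/LysM. In WT its shares of 20.9% (16.9 to 25.3) and 26.5% (23.4 to 29.9) had intervals that overlapped. Cyp11b1 made up 11.1% (8.30 to 14.5) of the 9 in capillary-like cells of VEGF/LysM, near the 13.4% (10.1 to 17.2) in WT. In adrenocortical-like cells it made up 3.38% in VEGF/LysM and 10.8% in WT, a gap in share that was not seen in capillary-like cells. In CPM, Cyp11b1 was lower in VEGF/LysM in capillary-like cells too, at 28.9 against 52.1 CPM in WT (log2 -0.85, -1.46 to -0.25).

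The deposited files hold called cells, and droplets without a cell were not analysed here, so free RNA was not measured directly. Its part in the endothelial levels was not tested. The adrenocortical-like cells sampled are few and led by outer-cortex genes, and whether they hold the mix of cells behind any free RNA was not tested.

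The UMIs were spread unevenly over endothelial cells. At least 1 UMI of the 10 members was found in 710 endothelial cells of VEGF/LysM (20.2%, 18.9 to 21.6) and 657 of WT (11.6%, 10.7 to 12.4). Had every UMI fallen on a cell in proportion to its depth, 951.4 VEGF/LysM cells and 884.5 WT cells would have had 1. Thinned to 1000 UMIs per cell, which leaves out 278 VEGF/LysM and 2105 WT endothelial cells, the shares were 10.1% in VEGF/LysM and 8.91% in WT. Myeloid-like cells, which should lack most members, had a UMI in 34.4% of VEGF/LysM and 32.6% of WT cells at median depths of 3404.5 and 2541 UMIs, and in 11.4% and 17.5% after thinning. Without the myeloid-like cells that carried Ms4a2 or Fcer1a, described below, these shares were 32.2% in VEGF/LysM and 23.0% in WT, and 10.4% and 8.92% after thinning. The shares over all endothelial cells were at or below all of these, and whether they reflect expression was not tested. Myeloid-like cells also carried endothelial markers, so they are not a reference free of endothelial RNA. Their 8 pan-endothelial markers summed to 8512 CPM in VEGF/LysM and 8540 CPM in WT, against 10970 and 12510 CPM in capillary-like cells.

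A few cells held many of the UMIs. The 36 VEGF/LysM cells with most member UMIs, 1% of the endothelial cells, held 26.4% of the member UMIs and 1.97% of all UMIs. The 57 such WT cells held 29.4% and 1.85%. These cells were picked by their member UMIs, so part of the gap between the shares was fixed in advance. With 5 or more member UMIs there were 24 cells in VEGF/LysM and 22 in WT, against 0.900 and 0.0979 in proportion to depth. Of these, 18 in VEGF/LysM and 14 in WT were capillary-like, and 1 and 4 were Plvap-high. The highest cell had 45 member UMIs in VEGF/LysM, in the haemoglobin-carrying class, and 14 in WT. These cells held 22.3% of member UMIs in VEGF/LysM and 17.2% in WT, so most of the UMIs lay in cells with 1 to 4.

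**Figure D3:**
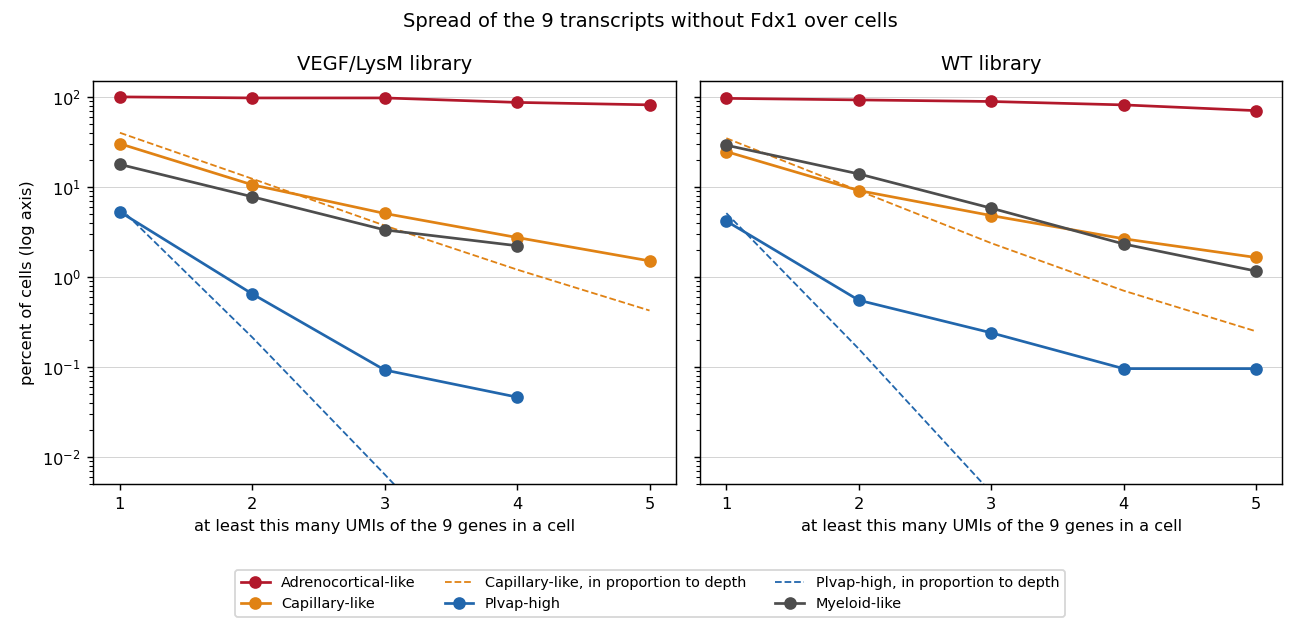
Percent of cells (log axis) with at least 1 to 5 UMIs of the 9 members without Fdx1, by class, in the VEGF/LysM library (left) and the WT library (right). Dashed lines give the percent if UMIs fell on the cells of the class in proportion to depth, and shares of 0 are not drawn. At 1 UMI the capillary-like cells lie below their dashed line (30.2% in VEGF/LysM and 24.7% in WT) and at 5 UMIs above it (1.51% and 1.65%).

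The same held inside the classes. Of capillary-like cells, 220 in VEGF/LysM and 195 in WT had a UMI of the 9, against 291.2 and 274.4 in proportion to depth, while 11 and 13 had 5 or more, against 3.09 and 1.97. Of Plvap-high cells, 114 in VEGF/LysM and 174 in WT had a UMI of the 9, against 126.2 and 213.2, and 14 and 23 had 2 or more, against 4.61 and 6.63. Without the cells of 5 or more, the summed 10 members stood in capillary-like cells at 250.5 CPM in VEGF/LysM and 340.1 CPM in WT. In Plvap-high cells they then stood at 64.3 CPM in VEGF/LysM and 71.0 CPM in WT. The class difference was therefore present without the highest cells.

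Thinned to 1000 UMIs per cell, the share of capillary-like cells with a UMI of the 9 was 18.9% in VEGF/LysM and 25.0% in WT, and of Plvap-high cells 2.10% and 3.41%. In myeloid-like cells it was 7.14% in VEGF/LysM and 15.9% in WT, or 6.28% and 7.05% without those that carried Ms4a2 or Fcer1a. The capillary-like share was thus above the myeloid-like one in both libraries and the Plvap-high share below it.

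The 18 VEGF/LysM and 14 WT capillary-like cells with 5 or more member UMIs carried endothelial markers at levels near those of their class. Their 8 pan-endothelial markers summed to 10850 CPM in VEGF/LysM and 13110 CPM in WT, against 10890 and 12500 CPM in capillary-like cells with no member UMI. Non-member cortex markers were higher in them, at 1243 CPM (1021 to 1500) in VEGF/LysM and 2152 CPM in WT, against 782.5 CPM (723.5 to 844.9) and 780.4 CPM. They were deeper, with a median of 3581 UMIs in VEGF/LysM and 1830 in WT, against 1566 and 834. Their median doublet score was 0.040 in VEGF/LysM and 0.043 in WT, against 0.032 and 0.038. Of the barcodes left out as likely doublets, 1 of 116 in VEGF/LysM and 2 of 315 in WT had 5 or more member UMIs.

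Over the classes, the sum of the 9 without Fdx1 was lowest in VEGF/LysM in tip-like cells, at 10.4 CPM (3.36 to 24.2), and next in Plvap-high cells. Myeloid-like cells followed at 58.7 CPM (39.0 to 84.9), arterial-like at 63.2 CPM (46.9 to 83.3) and cells with lymphatic and venous markers at 113.4 CPM (60.4 to 193.9), below the 259.7 CPM of capillary-like cells. Above these stood a mixed class of other endothelial cells (37 cells) at 316.6 CPM (187.6 to 500.3) and haemoglobin-carrying endothelial cells (63 cells) at 450.1 CPM (354.0 to 564.2). The last value rests on few cells, since 1 cell held 40 of its 75 UMIs, and without the 2 cells of 5 or more UMIs it was 162.2 CPM, below that of capillary-like cells. Neighbours in this order had overlapping intervals, except Plvap-high with myeloid-like, and lymphatic and venous with capillary-like.

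In WT the order began with Plvap-high cells at 40.3 CPM, tip-like at 53.5 CPM (31.7 to 84.6), lymphatic and venous at 61.4 CPM (12.7 to 179.6) and arterial-like at 76.1 CPM (52.1 to 107.4). Other endothelial cells were at 162.1 CPM (77.7 to 298.0), myeloid-like at 173.8 CPM (127.3 to 231.9), haemoglobin-carrying at 371.1 CPM (261.3 to 511.5) and capillary-like at 389.8 CPM. Only myeloid-like and haemoglobin-carrying were neighbours without overlapping intervals. The 19 VEGF/LysM lymphoid-like cells had 1 UMI of the 9, and the 11 WT cells had 0, which allows up to 96.5 CPM (3 UMIs).

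Within the arterial-like class, cells of the cluster led by Col8a1, Stmn2 and Fbln2 had more of the 9 than cells of the cluster led by Lgr5 and Tspan8. The sum was 218.5 CPM in 62 cells and 22.3 CPM in 250 cells of VEGF/LysM, a ratio of 9.78 (5.15 to 19.6). In WT it was 167.6 CPM in 80 cells and 39.8 CPM in 248 cells, a ratio of 4.21 (1.96 to 9.44). Capillary and haemoglobin markers moved with this, and their part was not tested. The 7 capillary markers summed to 11680 CPM in the Col8a1 cluster and 502.7 CPM in the Lgr5 cluster of VEGF/LysM, and to 10240 and 700.6 CPM in WT. Haemoglobin summed to 728.3 CPM in the Col8a1 cluster and 70.2 CPM in the Lgr5 cluster of VEGF/LysM, and to 536.3 and 99.6 CPM in WT. The 2 clusters were set side by side after their values had been seen.

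Myeloid-like cells, which CD45 should have kept out of the gate, had 45 UMIs of the 10 members in 90 VEGF/LysM cells (94.4 CPM) and 53 UMIs in 86 WT cells (200.3 CPM). Relative to endothelial cells the sum was lower in VEGF/LysM, with a log2 ratio of -0.48 (-0.94 to -0.05), and higher in WT, at 0.59 (0.17 to 0.99). Without endothelial cells of 5 or more member UMIs the VEGF/LysM log2 ratio was -0.13 (-0.60 to 0.30), and without Fdx1 it was -0.45 (-1.05 to 0.09), both with intervals that held 0. Against Plvap-high cells alone, myeloid-like cells were 1.45-fold (1.04 to 1.98) higher in VEGF/LysM and 2.64-fold (1.94 to 3.52) higher in WT. Cyp11a1, which opens steroid synthesis, set much of this apart: it had 4 UMIs (8.39 CPM) in VEGF/LysM and 29 UMIs (109.6 CPM) in WT.

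These UMIs lay mostly in myeloid-like cells with a UMI of Ms4a2 or Fcer1a, which encode subunits of the high-affinity IgE receptor. In VEGF/LysM, 3 cells had a UMI of either receptor gene and held 3 of the 4 Cyp11a1 UMIs. In WT, 12 such cells held 24 of the 29 Cyp11a1 UMIs, in 11 of the 12 cells, at 950.4 CPM (609.0 to 1414). The other 9 members had 0 UMIs in those 12 WT cells, which allows at most 118.8 CPM (3 UMIs). The other 74 WT myeloid-like cells had 5 Cyp11a1 UMIs (20.9 CPM) beside 24 UMIs of the other 9 members (100.3 CPM). In the WT library Cyp11a1 thus occurred in these cells without UMIs of the transcripts that accompanied it in adrenocortical-like and capillary-like cells. These cells were singled out after the values had been seen, and without them the log2 ratio of the summed members, myeloid-like over endothelial, was -0.58 in VEGF/LysM and -0.13 (-0.72 to 0.40) in WT.

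Mrap also stood apart in myeloid-like cells of VEGF/LysM. It had 6 UMIs there (12.6 CPM), up to 3 in a cell, a level 5.88-fold (1.92 to 15.3) that of endothelial cells. All lay in 4 cells with a UMI of a complement C1q gene, as had 59 of the 90 myeloid-like cells. The C1q genes were singled out after the values had been seen. In WT Mrap had 1 UMI. Mc2r had 1 UMI in myeloid-like cells of each library, and Nr5a1 had 0 in VEGF/LysM and 2 in WT.

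Between the libraries, the sum of the 10 members in all endothelial cells was 131.4 CPM in VEGF/LysM and 132.6 CPM in WT, a log2 ratio of -0.01 (-0.14 to 0.11). This level hid opposite parts. Fdx1 was higher, at 50.9 CPM in VEGF/LysM and 38.9 CPM in WT (log2 0.39, 0.17 to 0.61). The other 9 were lower, at 80.5 CPM in VEGF/LysM and 93.8 CPM in WT (log2 -0.22, -0.37 to -0.07). Of all endothelial genes with at least 50 UMIs, 2.96% were at least 1.5-fold higher and 3.13% at least 1.5-fold lower in VEGF/LysM, and of the 7 members with that many UMIs 0 were past either limit. Their median log2 ratio was -0.29, against -0.03 over all genes. The sum depends on scale and mix: counted as UMIs per cell its log2 ratio was 0.94, beside a ratio of 0.95 in mean depth, and with equal weight for each larger endothelial class it was -0.34.

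Of the other 9, Cyp21a1 and Hsd3b1 had intervals below 0. Cyp21a1 was at 11.7 CPM in VEGF/LysM and 16.5 CPM in WT (log2 -0.49, -0.88 to -0.10), and Hsd3b1 at 14.3 and 18.5 CPM (log2 -0.37, -0.73 to -0.01). Star, at 22.8 CPM in VEGF/LysM and 22.3 CPM in WT, had a log2 ratio of 0.03 (-0.27 to 0.34). Cyp11a1, Cyp11b1 and Akr1b7 had log2 ratios from -0.37 to -0.13, each with an interval that held 0. Mc2r, Mrap and Nr5a1 had 4 to 19 UMIs in either library.

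**Figure D4:**
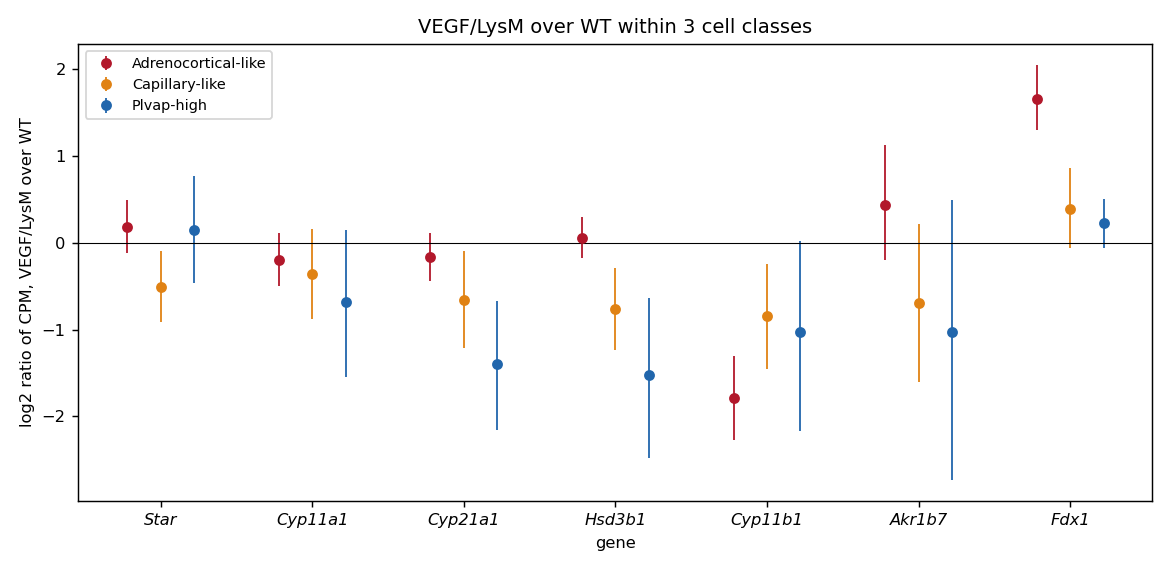
Log2 ratio of CPM, VEGF/LysM over WT, for the 7 members with most UMIs in adrenocortical-like, capillary-like and Plvap-high cells, with exact conditional binomial 95% intervals. Mc2r, Mrap and Nr5a1 are not drawn because they had few UMIs. Cyp11b1 and Fdx1 have the widest split in adrenocortical-like cells, at -1.79 and 1.66, and Cyp21a1 and Hsd3b1 are lowest in Plvap-high cells, at -1.39 and -1.52.

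In capillary-like and Plvap-high cells the 9 were lower in VEGF/LysM by more than in the pooled endothelial cells, whereas the sums of the haemoglobin-carrying, lymphatic and venous, and other endothelial classes given above were higher in VEGF/LysM, with intervals that overlapped. Without cells of 5 or more UMIs of the 9, the haemoglobin-carrying class was lower, at 162.2 CPM in VEGF/LysM and 350.5 CPM in WT. Of the pooled endothelial cells, capillary-like cells made up 729 of 3516 in VEGF/LysM and 790 of 5682 in WT. In capillary-like cells the log2 ratio was -0.59 (-0.79 to -0.38), and in Plvap-high cells -0.78 (-1.10 to -0.46). In adrenocortical-like cells it was -0.11 (-0.23 to 0.01). In capillary-like cells Hsd3b1 had 78 UMIs in each library, which was 48.0 CPM in VEGF/LysM and 81.3 CPM in WT (log2 -0.76, -1.23 to -0.29). Cyp11b1 was at 28.9 CPM in VEGF/LysM and 52.1 CPM in WT (log2 -0.85, -1.46 to -0.25). Of the 6 members with enough UMIs there, 3 were at least 1.5-fold lower, where 5.23% of all genes were, and 0 higher, where 4.36% were. Fdx1 was at 0.39 (-0.06 to 0.86).

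In Plvap-high cells Hsd3b1 had 15 UMIs (2.68 CPM) in VEGF/LysM and 42 UMIs (7.69 CPM) in WT. Cyp21a1 had 23 UMIs (4.12 CPM) in VEGF/LysM and 59 UMIs (10.8 CPM) in WT. Of the 5 members with enough UMIs in these cells, 3 were at least 1.5-fold lower, where 3.13% of all genes were, and 0 higher, where 2.08% were. Star stood out from the enzymes with 8.95 CPM in VEGF/LysM and 8.06 CPM in WT. The Plvap-high class pooled 7 clusters that the libraries held in different numbers: the largest in VEGF/LysM was led by Hmcn1 and Serpine2 (499 cells) and the largest in WT by Igfbp5 (972 cells). The 9 were lower in VEGF/LysM in 6 of the 7, and differed most in the cluster led by Ccl2 and Cxcl1, with 28.6 CPM in VEGF/LysM and 78.5 CPM in WT. In the cluster led by Igfbp5 the sum was 28.6 CPM (15.7 to 48.1) in VEGF/LysM and 21.4 CPM (13.1 to 33.1) in WT.

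The libraries also differed in depth, and in WT the level of the 9 rose from group to group with depth, though with overlapping intervals. Each class was split into 3 groups of cells by depth. From the shallowest to the deepest group of capillary-like cells it was 232.8, 264.2 and 264.9 CPM in VEGF/LysM. In WT it was 293.7 (216.5 to 389.4), 380.3 and 422.3 CPM (369.9 to 480). In Plvap-high cells it was 23.3, 18.9 and 26.3 CPM in VEGF/LysM. In WT Plvap-high cells it was 29.2 (19.94 to 41.15), 40.1 and 44.9 CPM (37.25 to 53.64). The VEGF/LysM library was the deeper and had the lower level, and the part of depth was not tested. Genotype, library and depth cannot be told apart with 1 library per group.

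Of 12 other steroid enzymes and redox partners, 7 had enough endothelial UMIs to be compared between the libraries and 0 were past 1.5-fold either way. Fdxr, the reductase that feeds ferredoxin, was at 12.3 CPM in capillary-like and 6.80 CPM in Plvap-high cells of VEGF/LysM, and at 12.5 and 8.06 CPM in WT, nearer to Fdx1 than to the cytochromes. Akr1c18, a 20-alpha-hydroxysteroid dehydrogenase, had 31 UMIs (19.1 CPM) in capillary-like and 3 (0.537 CPM) in Plvap-high cells of VEGF/LysM, and 19 (19.8 CPM) and 2 (0.366 CPM) in WT. It had only 3 UMIs (12.9 CPM) in adrenocortical-like cells of VEGF/LysM and 0 in WT. Cyp17a1, needed for cortisol but not for corticosterone, had 0 UMIs in adrenocortical-like and capillary-like cells of both libraries.

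Of 17 genes of cholesterol supply, all 17 could be compared in endothelial cells, and 1 of those reported here was past 1.5-fold in VEGF/LysM. This was Tspo, which encodes a protein of the outer mitochondrial membrane, at 263.7 CPM in VEGF/LysM and 135.3 CPM in WT. Scarb1, the receptor for high-density lipoprotein, was at 494.8 CPM in capillary-like and 240.1 CPM in Plvap-high cells of VEGF/LysM, and at 432.5 and 240.0 CPM in WT. It made up most of the 797 CPM (VEGF/LysM) and 822.3 CPM (WT) of non-member cortex markers in capillary-like cells. Soat1, which esterifies cholesterol for storage and was at 629.8 CPM in adrenocortical-like cells of VEGF/LysM and 531.0 CPM in WT, did not follow the members: it was at 16.0 CPM in capillary-like and 24.9 CPM in Plvap-high cells of VEGF/LysM, and at 16.7 and 24.4 CPM in WT. Of 13 genes of ACTH signalling and cortex regulation, 10 were compared between the libraries and 0 were past 1.5-fold. Capillary-like cells were at least 1.5-fold lower than Plvap-high cells in 4 of 10 in VEGF/LysM and in 3 of 9 in WT, where 19.2% and 20% of all genes were, and higher in 0.

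Of 6 zone genes, Wnt4, a signal of the outer cortex, followed the members, at 12.9 CPM in capillary-like and 3.04 CPM in Plvap-high cells of VEGF/LysM and 15.6 and 2.93 CPM in WT. Dab2, another outer-cortex gene, did not, at 129.9 and 169.3 CPM in VEGF/LysM and 129.2 and 151.4 CPM in WT, although it was high in adrenocortical-like cells (2074 CPM in VEGF/LysM and 1712 CPM in WT). All 4 haemoglobin genes were at least 1.5-fold higher in capillary-like than in Plvap-high cells of both libraries. Over all endothelial cells they were also at least 1.5-fold higher in VEGF/LysM than in WT, with a median log2 ratio of 0.73. That ratio rested on the haemoglobin-carrying class, which held 5203 haemoglobin UMIs in VEGF/LysM and 2389 in WT. In capillary-like cells (324.9 CPM in VEGF/LysM and 362.7 CPM in WT), Plvap-high cells (80.3 and 86.6 CPM) and arterial-like cells (207.2 and 223.5 CPM) haemoglobin was lower in VEGF/LysM.

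The genes whose levels ran most like the summed members were ranked by Pearson's r of log2(CPM + 1) over 18 points, 9 classes in 2 libraries, which share depth and clustering, among 11164 genes. The 8 with the highest r were 1500015O10Rik (0.955), Dlg2 (0.928), Tesc (0.925), Kcnn2 (0.918), Prlr (0.917), mt-Nd2 (0.916), Kcnk3 (0.914) and mt-Nd1 (0.913). 1500015O10Rik was at 2044 CPM in adrenocortical-like, 29.5 CPM in capillary-like and 0.358 CPM in Plvap-high cells of VEGF/LysM, and at 1354, 24.0 and 1.10 CPM in WT. Kcnk3, a potassium channel gene of the outer cortex, was at 1894, 15.4 and 0.716 CPM in VEGF/LysM and 2124, 29.2 and 3.11 CPM in WT. Not all cortex genes kept such a ratio. Kcnn2, another potassium channel gene, was at 702.7 CPM in adrenocortical-like and 1.23 CPM in capillary-like cells of VEGF/LysM, and at 663.8 and 2.08 CPM in WT. Of the members, each set against the sum of the others, Star had the highest r (0.946) and Mrap the lowest (0.730).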

How the data were processed

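The authors deposited UMI counts, not normalized, for each gene in each called cell of 10x Genomics libraries, 1 for VEGF/LysM and 1 for WT. The submitters' processing notes name Cell Ranger 7.0.1, Seurat and the mm10 genome, and the file headers name Cell Ranger 7.0.0. The annotation release and the treatment of intronic reads are unstated in the sources. There were 3807 VEGF/LysM barcodes (10323972 UMIs) and 6276 WT barcodes (8606348 UMIs).

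A barcode was kept if it had 500 UMIs or more, 300 genes or more and no more than 15% mitochondrial UMIs. Doublets were scored with Scrublet within each library (scanpy 1.11.5). The automatic limit marked 4 VEGF/LysM and 1 WT barcodes and was not used, and the highest scores were left out instead at 0.8% per 1000 barcodes, which took out 116 VEGF/LysM and 315 WT barcodes. Both libraries were clustered together without the 10 members (10000 counts per cell, 2000 variable genes, 30 principal components, 15 neighbours, Leiden resolution 1), giving 20 clusters. Classes were named from non-member markers, Plvap-high from a pooled level of at least 700 CPM, a limit set with the clusters in view. From the adrenocortical-like cluster, 6 VEGF/LysM and 1 WT cells with fibroblast markers were set aside.

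UMIs were summed per class and library and given as CPM with exact Poisson intervals, ratios with exact conditional binomial intervals and shares with Clopper-Pearson intervals, all at 95%. These cover counting error only, and amplification and sampling of mice are not in them. The code for ratios was tested on simulated data. Ratios over all genes used genes with at least 50 UMIs over both sides. Levels were compared at 1.5-fold, 3-fold or 10-fold with no test, since each group is 1 library. Coordinates are those of GENCODE M21 (GRCm38), matched by gene identifier, and promoter windows those of RefSeq GRCm38.p6. Within the last 500 bases of a transcript, 9 members shared no window of 50 bases with another gene, and Cyp11b1 shared 26 of 451, so its reads may be split with other genes.

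The members, the gene lists and the rule for named genes were chosen with earlier results of these data known. The rule names all 10 members, list genes with at least 50 endothelial UMIs or among the 3 most abundant of a list in adrenocortical-like cells, and the 8 genes with the highest correlation. Genes named beyond it are marked as singled out, apart from Cyp17a1 and the genes that name a class or lead a cluster. The result of 1 gene of the cholesterol supply list is not reported here. Alternatives changed the cell filter, doublet removal, clustering genes and resolution, high cells, scale, class weights and the use of Fdx1.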

Additional observations from a re-analysis of the deposited data

How the results depend on the processing

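No paired analysis was possible because each group is 1 library, and for the same reason no replicate could be left out. Of 144 values computed under alternatives for the main results, 105 stayed within the counting interval, 37 moved and 2 reversed, and of 120 for single members 104 stayed, 12 moved and 4 reversed.

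With at least 1000 UMIs per cell and a new clustering, the log2 ratio of the sum in endothelial cells was 0.33 (against -0.01), its percent of the adrenocortical-like level 1.37 in VEGF/LysM, the share of cells with a member UMI 21.6% in VEGF/LysM and 13.6% in WT, and the share of UMIs in the top 1% of cells 40.0% in VEGF/LysM. In this clustering 24 of the 51 remaining adrenocortical-like cells fell among endothelial clusters, 17 of them arterial-like. With classes kept (chosen after seeing the data), the share was 13.4% in WT, and no other result left its interval. With all deposited barcodes the percent was 1.54 in VEGF/LysM and 1.79 in WT.

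Counted as UMIs per cell, the log2 ratio of the sum was 0.94, and myeloid-like over endothelial 0.59 in VEGF/LysM, reversed from -0.48, and 1.83 in WT. The percent was 0.459 in VEGF/LysM and 0.586 in WT, and capillary-like over Plvap-high 2.17 in VEGF/LysM (log2). Mean UMIs per endothelial cell differed by 0.95 (log2), and those of the classes differed too.

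Without cells of 5 or more member UMIs, the percent was 0.881 in VEGF/LysM and 1.05 in WT, the share in the top 1% of cells 12.9% and 20.9%, and capillary-like over Plvap-high 1.96 and 2.26 (log2; 2.39 and 2.57 in the report's setting). With equal class weights the log2 ratio of the sum was -0.34, the percent 1.22 in VEGF/LysM and 1.71 in WT, the share of cells 13.5% in WT and myeloid-like over endothelial 0.15 in WT. Without Fdx1 these were -0.22 for the sum, 0.895 and 0.966 for the percent, 11.5% and 7.73% for the share, 35.6% and 37.0% for the top 1% and 3.47 and 3.28 for capillary-like over Plvap-high. Without the myeloid-like cells that carried Ms4a2 or Fcer1a (chosen after seeing the data), myeloid-like over endothelial reversed to -0.13 in WT.

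The count of members past 1.5-fold in endothelial cells, 0, became 1 at 1000 UMIs, 1 without doublet removal, 3 without the high cells and 4 per cell. The share of all genes past 1.5-fold was not computed under these settings, so the counts are not read as a result about the members. The difference of 0.95 (log2) in mean depth also enters the count per cell. Cyp21a1 reversed to 0.032 at 1000 UMIs and 0.46 per cell, and Hsd3b1 to 0.12 and 0.58 (log2). The cause was not tested unless stated. Gating cells on their own Cd36, Car4 and Plvap UMIs (chosen after seeing the data) gave capillary over Plvap ratios of 2.44 in VEGF/LysM and 2.57 in WT.

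At Leiden resolution 0.5 no capillary-like class formed. Shares have no value per cell or without mitochondrial UMIs, and the top 1% and the class ratio none under equal weights. Mc2r, Mrap and Nr5a1 had too few UMIs for a comparison between the libraries.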
